A study of Mus musculus with 8 samples.

Results

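The genes described here are 10 genes of the classical MHC class I presentation pathway in mouse. They are the heavy chains H2-K1 and H2-D1, the light chain B2m, the transporter genes Tap1 and Tap2, and Tapbp and Erap1. The others are the immunoproteasome genes Psmb8 and Psmb9 and the regulator Nlrc5. All 10 were taken by name from a table of 47937 genes measured by RNA-seq, were found there and passed the filter on low counts. The libraries came from sorted CD8 single-positive (CD8SP) thymocytes, the CD8 lineage T cells that are about to leave the thymus, gated as positive for TCRb and high for surface MHC class I. Each group had 4 mice, 1 library per mouse, and all were 6 to 7 weeks old. The Ndrg3TKO mice were Ndrg3 fl/fl;Lck-cre+ and the Ndrg3ctrl mice were Ndrg3 +/fl;Lck-cre+, so both groups carried the Cre transgene and at least 1 floxed allele, and the controls were heterozygous for it. The Cre is driven by the proximal Lck promoter, which is active from an early thymocyte stage, so a difference can arise at any later step of T cell development.

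Class I molecules display peptides from inside the cell to CD8 T cells. Proteins are cut by the proteasome, in which Psmb8 and Psmb9 replace constitutive catalytic subunits. TAP1 and TAP2 pump the peptides into the endoplasmic reticulum, tapasin (Tapbp) holds empty class I molecules at the transporter, ERAP1 trims peptide ends, and the finished complex of heavy chain, B2m and peptide travels to the surface. NLRC5 is a transactivator that acts with DNA-bound factors at a conserved module in class I promoters. Surface class I rises as single-positive thymocytes mature, which is why it serves as a gate, and here the same gate was applied to both groups. The libraries can therefore show how the RNA of these genes compared among cells already chosen for high surface class I, and not whether fewer or more cells reached that level.

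Of the 10 genes, 7 lie within 1.35 Mb of chromosome 17 (GRCm38), in the mouse MHC. In order these are Tapbp at chr17:33915899-33929292, H2-K1 at chr17:33996017-34000347, Psmb9 at chr17:34181987-34187764, Tap1 at chr17:34187553-34197225, Psmb8 at chr17:34197721-34201454, Tap2 at chr17:34203527-34216321 and H2-D1 at chr17:35262730-35267499. H2-K1 and Psmb9 are on the minus strand and the other 5 on the plus strand. The rest are on the plus strand elsewhere, with B2m at chr2:122147686-122153083, Nlrc5 at chr8:94434356-94527272 and Erap1 at chr13:74639568-74693201. Psmb9 and Tap1 point away from each other, and their annotated genes share 212 bases. The RefSeq starts of these 2 genes leave 225 bases between them. Psmb9 had 2250 to 3583 raw counts per library, beside 9263 to 14778 for Tap1. Tapbp shares 3422 bases with Zbtb22 on its own strand (849 to 1341 raw counts per library, beside 15518 to 22017 for Tapbp). Erap1 shares 834 bases with Cast on the opposite strand (2860 to 4412 beside 5587 to 8467). B2m shares 5398 bases with Patl2 on the opposite strand, which had 0 to 5 raw counts. Reads from such stretches may be lost or misassigned. Shared bases are counted over whole genes, introns included, so they do not show how many reads are at risk.

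The promoters are shown because they are where NLRC5 and the interferon and NF-kappaB routes meet these genes. The 180 bases before the RefSeq start (GRCm38.p6) of the heavy chains, the light chain and Tap1 are printed below from 5′ to 3′ on the strand of the gene. The stretches are chr17:34000348-34000527 on the minus strand for H2-K1, chr17:35262914-35263093 for H2-D1, chr2:122147507-122147686 for B2m and chr17:34187376-34187555 for Tap1. Capitals mark matches on either strand to 4 kinds of motif. The kappaB site was searched as GGGANTCCC. The core of the interferon response element was searched in either of its spacings, as GAANNGAAA or with 1 base moved, as GAAANNGAA, and these can overlap. The CRE-like core was searched as TGACG. The CCAAT box was searched as ATTGG.
H2-K1: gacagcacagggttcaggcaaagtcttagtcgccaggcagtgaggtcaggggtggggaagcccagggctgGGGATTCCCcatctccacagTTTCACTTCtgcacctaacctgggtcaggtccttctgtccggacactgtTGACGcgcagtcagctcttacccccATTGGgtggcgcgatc
H2-D1: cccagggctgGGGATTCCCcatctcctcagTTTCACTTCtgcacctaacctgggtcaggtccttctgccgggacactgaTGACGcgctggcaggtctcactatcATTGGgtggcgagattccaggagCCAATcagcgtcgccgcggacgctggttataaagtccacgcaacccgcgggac
B2m: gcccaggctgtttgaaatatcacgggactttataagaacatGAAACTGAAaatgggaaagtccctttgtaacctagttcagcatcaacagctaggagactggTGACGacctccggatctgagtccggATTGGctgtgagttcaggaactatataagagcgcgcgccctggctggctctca
Tap1: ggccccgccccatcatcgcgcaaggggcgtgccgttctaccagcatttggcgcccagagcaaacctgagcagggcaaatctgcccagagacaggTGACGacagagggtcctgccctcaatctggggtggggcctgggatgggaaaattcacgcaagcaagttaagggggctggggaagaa

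H2-K1 and H2-D1 held the same 4 kinds of match in the same order, and over 228 aligned positions of their RefSeq promoter windows 90.4% of positions were identical. The matches of H2-D1 stand 60 bases farther from its annotated start than those of H2-K1. In H2-K1, H2-D1 and B2m, TGACG was followed on the same strand by ATTGG with 20 bases between, and this arrangement occurred in 12 of the 27025 promoters of the same length, or 0.0444%. The other 9 included H2-M3, another class I gene, which was the only promoter outside these 3 among the 58 available for the pathway lists below. Taken singly the matches were far commoner. The kappaB site was present in 0.433% of promoters, the interferon response cores in 4.41% and 4.95%, the CRE-like core in 15.0% and the CCAAT box in 28.2%. The letters were chosen from known motif names and the spacing was searched after these sequences had been read, so the matches are a description and not sites of binding. Tap1 held TGACG alone, and the RefSeq table had promoters for 8 of the 10 genes, without Tap2 and Nlrc5.

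Total counts ranged from 21126698 to 32668081 per library, with the lowest in Ndrg3ctrl replicate 2. The 10 genes had between 2250 and 49729 raw counts in each library, which puts counting error alone between 0.448% and 2.11%, below the spread between mice given later. Ndrg3 itself fell from 2336 ± 28.9 to 1500 ± 87.2 normalized counts (mean ± SD, n = 4 per group), a log2 fold change of -0.64 (edgeR adjusted p = 1.04e-05). Its counts include exons outside the floxed part. Y-linked RNA above 1 CPM, marking male mice, was present in Ndrg3ctrl replicate 2 and in Ndrg3TKO replicates 2 and 3. The 8 genes fixed as markers of the sorted cells (Cd8a, Cd8b1, Cd3e, Cd3g, Trac, Trbc1, Trbc2 and Runx3) summed to 5270 to 5560 CPM in Ndrg3ctrl and 5340 to 5590 CPM in Ndrg3TKO. In bulk RNA, fewer cells of a type and less RNA per cell cannot be told apart, which holds for every value that follows.

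None of the 10 presentation genes passed the threshold of an adjusted p under 0.05 in edgeR's quasi-likelihood test, in either direction. Of all 14633 genes tested, 0.793% were called higher in Ndrg3TKO and 0.355% lower. Without adjustment, 1 of the 10 genes, Nlrc5, had a p under 0.05. By that rule 1588 of all 14633 tested genes passed, 5.34% of all being higher and 5.51% lower. DESeq2 called 1 of the 10, again Nlrc5, beside 306 of all genes. It gave a p-value to 24676 genes, but by default it gives no adjusted p to genes of low mean count. The 24676 therefore include genes that could not be called. Of the 10 genes, 4 had a fold change above 1 and 6 below, with a median log2 fold change of -0.0067 beside -0.0033 over all tested genes. Normalized counts of the 2 groups did not overlap for 1 of the 10 genes, Nlrc5. The groups did not overlap for 1030 of all 14633 tested genes, with Ndrg3TKO higher for 3.44% of all and lower for 3.59%.

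**Figure D1:**
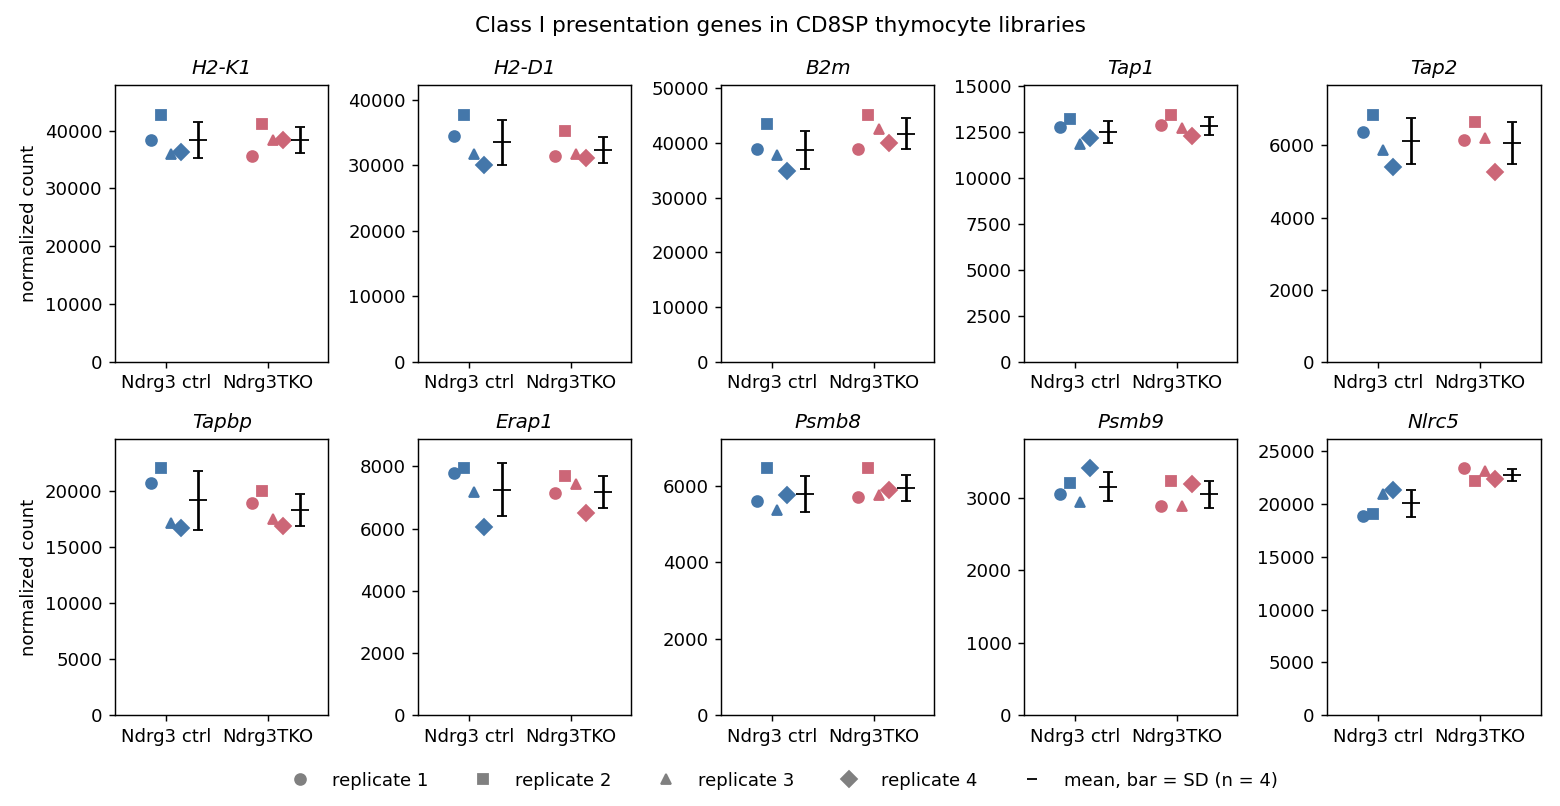
Normalized counts (axes from 0) of the 10 presentation genes in each library, with Ndrg3ctrl in blue and Ndrg3TKO in red, a marker shape for each replicate, and the mean with its SD (n = 4) in black. The groups overlap in 9 panels, and in the Nlrc5 panel the 4 Ndrg3TKO libraries, at 22195 to 23372, lie above the 4 Ndrg3ctrl libraries, at 18838 to 21342.

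H2-K1, which encodes the heavy chain H-2K, had 38360, 42777, 35999 and 36376 normalized counts in Ndrg3ctrl replicates 1 to 4 and 35590, 41068, 38330 and 38419 in Ndrg3TKO replicates 1 to 4. Replicate 2 was the highest in both groups, and 1 Ndrg3TKO library lay below all controls. The group means of 38378 and 38352 gave a log2 fold change of -0.00094 with a standard error of 0.0736, and the 95% interval of the change ran from -10.4% to 11.5% (edgeR adjusted p = 0.999).

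H2-D1, the heavy chain H-2D, had 34473, 37724, 31689 and 29994 normalized counts in Ndrg3ctrl and 31358, 35215, 31687 and 31093 in Ndrg3TKO. All 4 Ndrg3TKO libraries fell within the range of the controls. The log2 fold change was -0.05 ± 0.0783 (SE), with an interval from -14.0% to 8.54% (edgeR adjusted p = 0.868). The counts of the heavy chains can be blurred by their relatives. Of all 50-base windows along the H2-D1 transcript, 14.3% also occurred in transcripts of other genes, with H2-Q1 first among them, and for H2-K1 the share was 8.79%, with H2-D1 first. Over 100-base windows the shares were 4.64% and 0%.

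B2m encodes the light chain that every class I heavy chain needs. It had 38813, 43397, 37828 and 34805 normalized counts in Ndrg3ctrl and 38925, 45188, 42629 and 40056 in Ndrg3TKO. One Ndrg3TKO library lay above all controls, and the other 3 lay between the 2 highest controls. The mean was 7.72% higher in Ndrg3TKO, a log2 fold change of 0.11 ± 0.0783 (SE), but the interval from -4.10% to 21% included no change (edgeR adjusted p = 0.666).

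Tap1 had 12777, 13173, 11822 and 12159 normalized counts in Ndrg3ctrl and 12866, 13429, 12709 and 12275 in Ndrg3TKO. The ranges were nearly superimposed, and the log2 fold change of 0.04 had the smallest standard error of the 10 genes, 0.0538, with an interval from -5.18% to 11.2%. Its partner Tap2 ranged from 5400 to 6857 in Ndrg3ctrl and from 5253 to 6663 in Ndrg3TKO, with a log2 fold change of -0.01 and an interval from -12.3% to 11.9%. Tapbp, the tapasin gene, ranged from 16734 to 22067 in Ndrg3ctrl and from 16883 to 20007 in Ndrg3TKO. It varied most between control mice, with an SD of 13.7% of the mean, and its interval of -16.5% to 9.20% was the lowest reaching of the 10. Erap1 ranged from 6063 to 7945 and from 6495 to 7694, with a log2 fold change of -0.01 and an interval from -12.1% to 11.8%.

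The immunoproteasome genes gave the same picture. Psmb8 ranged from 5358 to 6452 normalized counts in Ndrg3ctrl and from 5688 to 6445 in Ndrg3TKO, a log2 fold change of 0.04 with an interval from -6.49% to 12.7%. Psmb9 ranged from 2943 to 3407 in Ndrg3ctrl and from 2880 to 3236 in Ndrg3TKO, and 2 Ndrg3TKO libraries lay below all controls. Its log2 fold change was -0.05 with an interval from -11.4% to 5.72%. The edgeR adjusted p was 0.849 for Tap1, 0.974 for Tap2, 0.843 for Tapbp, 0.976 for Erap1, 0.876 for Psmb8 and 0.829 for Psmb9. All 6 intervals lay between -16.5% and 12.7%.

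Nlrc5 was the 1 gene of the 10 without overlap between the groups and with an unadjusted edgeR p under 0.05. A count of 1 in 10 is near the shares over all tested genes given above. Nlrc5 had 18838, 19061, 20928 and 21342 normalized counts in Ndrg3ctrl and 23372, 22195, 23106 and 22361 in Ndrg3TKO. All 4 Ndrg3TKO libraries thus exceeded the highest control. Its SD was 6.37% of the mean in Ndrg3ctrl and 2.5% in Ndrg3TKO. The mean was 13.5% higher in Ndrg3TKO, a log2 fold change of 0.18 ± 0.0605 (SE) with an interval from 3.79% to 24.2%. Adjusted over all tested genes the edgeR p was 0.229, which is not past the threshold, whereas DESeq2 gave a log2 fold change of 0.18 and an adjusted p of 0.0393, which is.

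Since every Ndrg3TKO library exceeded every control, Nlrc5 had to be higher in each of the 3 runs of close sample numbers in the labels. Only the sizes are added here. The Ndrg3TKO library was higher by 0.31 (log2) in the run of 1 library per group numbered 6313 to 6314, by 0.18 in the run of 2 per group numbered 6586 to 6590, and by 0.07 in the run of 1 per group numbered 6647 to 6649. In 5 of the 10 genes the direction was the same in all 3 runs, the others of these being B2m, Tap1, Psmb8 and Psmb9, and the labels do not say what the numbers stand for. With these runs as a block the edgeR adjusted p of Nlrc5 was 0.179, with Y-linked RNA as a covariate it was 0.0694, and with 1 library left out at a time it lay between 0.216 and 0.509, with log2 fold changes between 0.16 and 0.21. The lincRNA gene 9330175E14Rik, with 1018 to 1877 raw counts, overlaps 748 bases of Nlrc5 on the opposite strand, beside 13404 to 25165 raw counts for Nlrc5, and the strand setting of the counting is not given in the sources used here. The promoters printed above belong to genes that NLRC5 is known to act on, and H2-K1, H2-D1, B2m and Tap1 had log2 fold changes of -0.00094, -0.05, 0.11 and 0.04 in the same libraries. In the 3 runs, in the order given for Nlrc5, B2m was higher in Ndrg3TKO by 0.0041, 0.12 and 0.20 (log2). Tap1 was higher by 0.01, 0.07 and 0.01, and H2-K1 and H2-D1 changed sign between runs. None of these genes passed the threshold, and a link to Nlrc5 was not tested.

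**Figure D2:**
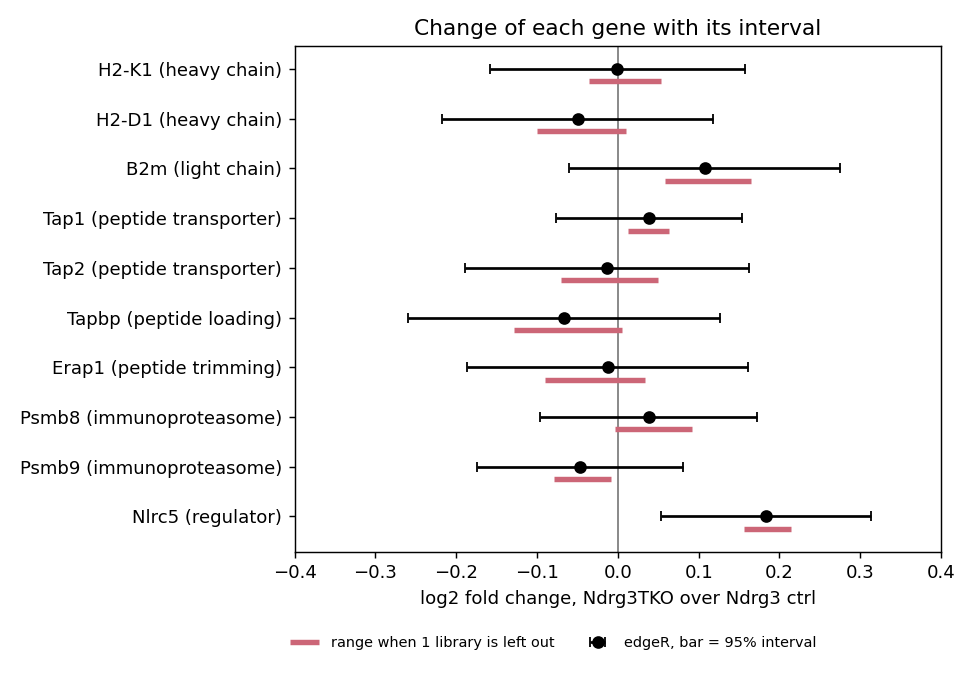
Log2 fold change of each presentation gene, Ndrg3TKO over Ndrg3ctrl, as a black point with its 95% interval from edgeR, and below it in red the range of the fold changes when 1 library at a time is left out. Nlrc5, at 0.18, is the 1 gene whose interval lies wholly above 0, and the other 9 intervals include 0.

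For 9 of the 10 genes the range among the 4 controls was wider than the difference between the group means, and the order of the mice was largely shared between genes. Of the 4 controls, replicate 2 had the highest value for 8 of the 10 genes, all but Psmb9 and Nlrc5. Of the 4 Ndrg3TKO libraries, replicate 2 was the highest for 9, all but Nlrc5. Ndrg3ctrl replicate 4 was the lowest control for 5 genes and Ndrg3TKO replicate 4 the lowest of its group for 5. Both replicate 2 libraries and Ndrg3TKO replicate 3 had Y-linked RNA. In Ndrg3TKO replicate 3, 6 of the 10 genes lay above their own mean over all 8 libraries. Ndrg3ctrl replicate 2 had the smallest total of the 8 libraries and Ndrg3TKO replicate 2 the largest. The part of sex and depth in this order was not tested. The median deviation of the 10 genes from their own means over all 8 libraries was 0.14 (log2) in Ndrg3ctrl replicate 2 and 0.10 in Ndrg3TKO replicate 2, beside 0.0045 in Ndrg3TKO replicate 3, and it was lowest, at -0.10, in Ndrg3ctrl replicate 4. With Y-linked RNA as a covariate no member passed the threshold in edgeR. The H2-K1 log2 fold change was then -0.04 and that of B2m 0.06.

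**Figure D3:**
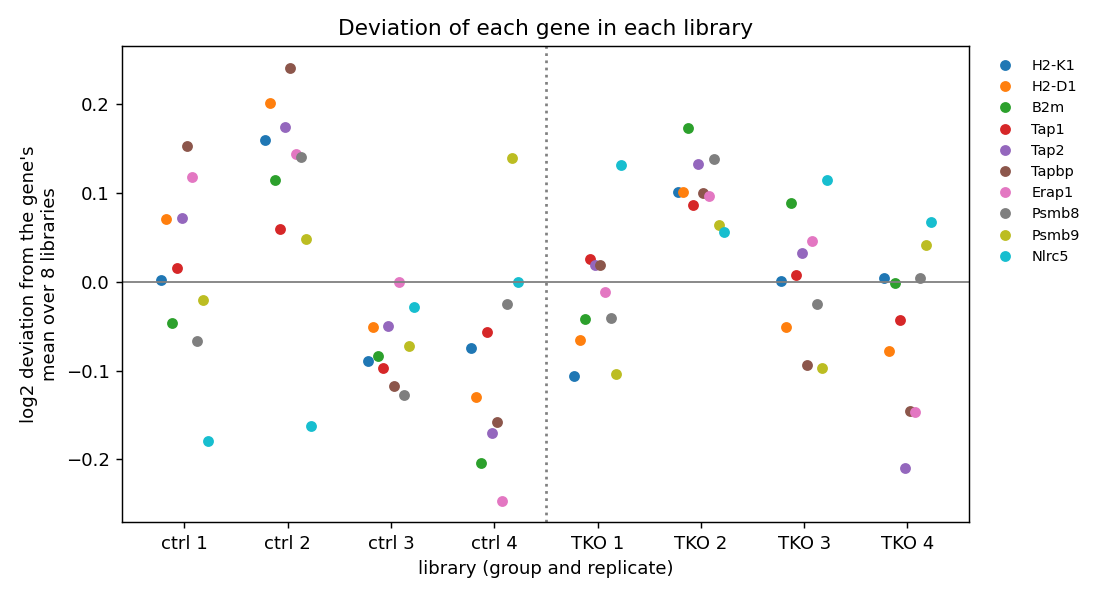
Deviation (log2) of each presentation gene from its own mean over the 8 libraries, by library, with a colour for each gene and a dotted line between Ndrg3ctrl and Ndrg3TKO. In Ndrg3TKO replicate 2 all 10 points lie above 0 and in Ndrg3ctrl replicate 2 there are 9, while Nlrc5 lies low there and in Ndrg3ctrl replicate 1.

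The tested genes outside the 10 whose levels over the 8 libraries were most like their mean z-score included Rpl8, which encodes a ribosomal protein, Ier5, an immediate early response gene, Atp5b, a subunit of the mitochondrial ATP synthase, and B4galt5, a galactosyltransferase. The mean absolute differences in z-score of these 4 ran from 0.267 to 0.273 over 8 libraries, and none of them passed the threshold.

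Per exonic length, levels differed widely between the genes, although 4 of the 9 pairs of neighbours in the order overlapped. Levels are given as CPM on the TMM-scaled library size, per kilobase of annotated exon. B2m was highest, with 1555 ± 143 in Ndrg3ctrl and 1675 ± 112 in Ndrg3TKO (mean ± SD, n = 4 per group), which ranked 12th among the 14633 tested genes. H2-K1, with 451 ± 36.6 and 451 ± 26.3, and H2-D1, with 448 ± 45.3 and 433 ± 25.9, followed and ranked 45th and 47th. Their ranges overlapped, and H2-K1 was the higher of the pair in 4 of the 8 libraries. B2m exceeded H2-K1 by 3.58 times per exonic length, in all 8 libraries. By the transcript length used further below, the factor was smaller, with means over the 8 libraries of 1615 for B2m and 819 for H2-K1. Tapbp came next, at 183 ± 25.0 and 175 ± 13.4. Nlrc5, at 81.5 ± 5.19 and 92.6 ± 2.32, and Tap1, at 78.8 ± 3.83 and 80.9 ± 3.01, overlapped each other, as did Psmb8, at 59.2 ± 4.82 and 60.7 ± 3.53, and Tap2, at 56.0 ± 5.77 and 55.5 ± 5.40. Erap1, at 34.4 ± 4.07 and 34.1 ± 2.44, and Psmb9, at 29.7 ± 1.90 and 28.8 ± 1.78, were lowest and also overlapped. Exonic length counts the exons of every annotated transcript, so a gene with rarely used long exons has an understated level. The order depends on this choice. Per length of the longest protein-coding transcript, a setting added after the data were seen, B2m stayed first, H2-K1 (819 ± 66.4 in Ndrg3ctrl) lay above H2-D1 (550 ± 55.6) without overlap, Tap1 (146 ± 7.10) and Psmb8 (mean 123) moved above Nlrc5 (91.4 ± 5.82), and Psmb9 (80.5 ± 5.14) moved above Tap2 and Erap1.

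A ratio of 2 genes within a library does not depend on how libraries are scaled, and 7 such ratios were compared, each by a 2-sided exact permutation test over the 70 arrangements of the libraries, whose smallest p is 0.0286. The level of H2-D1 relative to B2m was 0.296, 0.290, 0.279 and 0.287 in Ndrg3ctrl and 0.269, 0.260, 0.248 and 0.259 in Ndrg3TKO. The groups did not overlap, and the log2 ratio was lower by 0.16 in Ndrg3TKO (exact p = 0.0286, the smallest possible, adjusted over the 7 ratios p = 0.2). H2-K1 relative to B2m was 0.289, 0.289, 0.279 and 0.306 in Ndrg3ctrl and 0.268, 0.266, 0.263 and 0.281 in Ndrg3TKO. There 1 Ndrg3TKO library reached into the control range, and the exact p was 0.0571, adjusted 0.2. Since B2m enters both ratios, they are not separate observations. No ratio passed the threshold after adjustment, but a single ratio could not have done so, since the smallest exact p of 0.0286 becomes 0.2 when 1 of the 7 ratios reaches it.

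The remaining ratios overlapped between the groups. H2-K1 relative to H2-D1 was 0.977 to 1.06 in Ndrg3ctrl and 0.996 to 1.08 in Ndrg3TKO (exact p = 0.286). Tap1 relative to Tap2 was 1.33 to 1.55 and 1.39 to 1.61 (exact p = 0.457). The immunoproteasome subunits were set against the constitutive subunits they replace. Psmb8 relative to Psmb5 was 1.33 to 1.40 and 1.38 to 1.48 (exact p = 0.143), Psmb9 relative to Psmb6 was 0.688 to 0.829 and 0.736 to 0.813 (exact p = 0.857), and Psmb10 relative to Psmb7 was 2.13 to 2.59 and 2.35 to 2.60 (exact p = 0.743). Whether a subunit lay above its counterpart depended on the length used. Per length of the longest protein-coding transcript, Psmb8 relative to Psmb5 was 2.77 to 3.08 over the 8 libraries, Psmb9 relative to Psmb6 was 0.794 to 0.956, and Psmb10 relative to Psmb7 was 0.938 to 1.14, so that Psmb8 lay above and Psmb9 below its counterpart by both lengths, and Psmb10 did not keep to 1 side. The comparison between the groups is the same for any length.

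**Figure D4:**
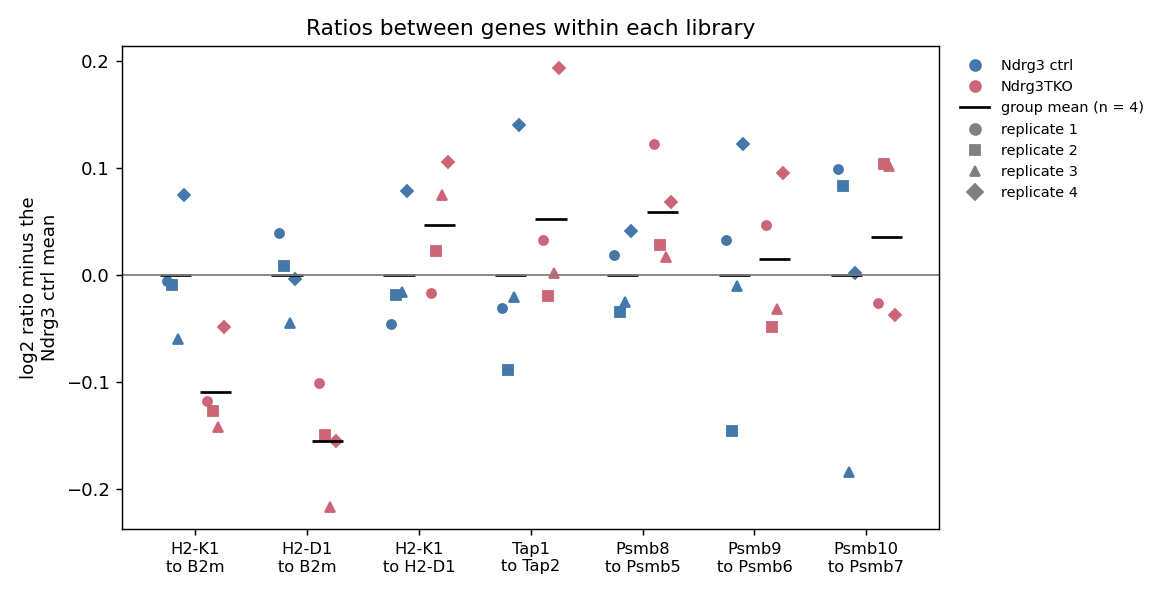
Log2 ratio of levels of 2 genes within each library, minus the Ndrg3ctrl mean of that ratio, with Ndrg3ctrl in blue, Ndrg3TKO in red and group means as black bars. The 4 Ndrg3TKO points of H2-D1 to B2m lie below all control points, and in the other 6 ratios the groups overlap.

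The rest of the pathway was read from 6 lists with 72 genes, of which 68 were tested. One of the 68 passed the threshold, H2-Q6, higher in Ndrg3TKO, and none was called lower, beside the shares of all tested genes called that are given above. Of the 68, 49 had a fold change below 1 and 19 above, with a median log2 fold change of -0.04. Among all 14633 tested genes 7493 lay below 1 and 7140 above. An unadjusted edgeR p under 0.05 was found for 8 of the 68, beside 1588 of all 14633 tested genes. Among peptide loading genes and chaperones all 7 lay below 1 and none passed, with a median of -0.08. Calr, which encodes calreticulin, went from 11040 ± 1430 to 10310 ± 750 normalized counts, Canx (calnexin) from 9159 to 8442, and Pdia3, a disulfide isomerase of the loading complex, from 6390 to 6053. Among other proteasome and activator genes all 19 tested lay below 1 and none passed, with log2 fold changes from -0.16 to -0.0023. The most abundant per length were the activator genes Psme1 (log2 fold change -0.10), Psme3 (-0.10) and Psme2 (-0.08). These shares were not tested against other genes, and members of 1 complex are not independent of each other.

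Among 7 other peptidases that trim or destroy peptides none passed. Lnpep, an aminopeptidase of endosomes, had a log2 fold change of 0.10, Nrd1 of -0.07 and Tpp2, a large cytosolic peptidase, of 0.05. Over all 6 lists the groups did not overlap for 5 of the 68 tested genes, of which 3 were among these 7 peptidases. Over all tested genes the groups did not overlap with Ndrg3TKO higher for 3.44% and lower for 3.59%. The 3 peptidase genes were Tpp2, Blmh at -0.16 and Thop1 at -0.28, the last 2 being cytosolic peptidases named after their values were seen. With Y-linked RNA as a covariate Thop1 was called lower (log2 fold change -0.31, edgeR adjusted p = 0.0442). Among 18 other regulators of class I transcription 7 lay above 1 and 11 below, with none past the threshold. Irf1, an interferon-induced activator of these promoters, had a log2 fold change of -0.04, and Rela, an NF-kappaB subunit, of -0.05. None of the 7 interferon receptor and kinase genes passed either, with Jak1 at -0.07, Ifnar1 at 0.04 and Ifngr1 at 0.14.

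Of 13 class I genes of similar sequence 10 were tested. H2-Q6, a nonclassical class I gene at chr17:35424850-35430055, had 2258, 2456, 2106 and 1760 normalized counts in Ndrg3ctrl and 3558, 3657, 4057 and 2867 in Ndrg3TKO. All Ndrg3TKO libraries lay above all controls, with a log2 fold change of 0.72 ± 0.119 (SE, edgeR adjusted p = 0.0203). The call was lost in 5 other settings, at an adjusted p of 0.078 without Ndrg3ctrl replicate 1, 0.091 without Ndrg3ctrl replicate 3, 0.104 without Ndrg3TKO replicate 1, 0.0622 without Ndrg3TKO replicate 2, and 0.0956 with no filter on low counts, while the log2 fold change stayed between 0.64 and 0.81 over all settings. Its neighbour H2-Q7 went from 11180 ± 679 to 13580 ± 1130, without overlap (log2 fold change 0.28, edgeR adjusted p = 0.0639), and DESeq2 called both. In edgeR H2-Q7 was also called with no filter on low counts, with sample number runs as a block and with Y-linked RNA as a covariate. It was not called with DESeq2's size factors. With 1 library left out it was called without Ndrg3ctrl replicate 2 or Ndrg3TKO replicate 4, and not otherwise. Counts of the pair are uncertain, since 32.0% of 50-base windows of the H2-Q6 transcript and 34.9% of those of H2-Q7 occurred in other genes, each most often in the other of the pair, while 5.45% and 8.34% occurred in 1 of the 2 classical heavy chains. H2-Q4, at a log2 fold change of 0.08, and H2-T23, at -0.04, did not pass.

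**Figure D5:**
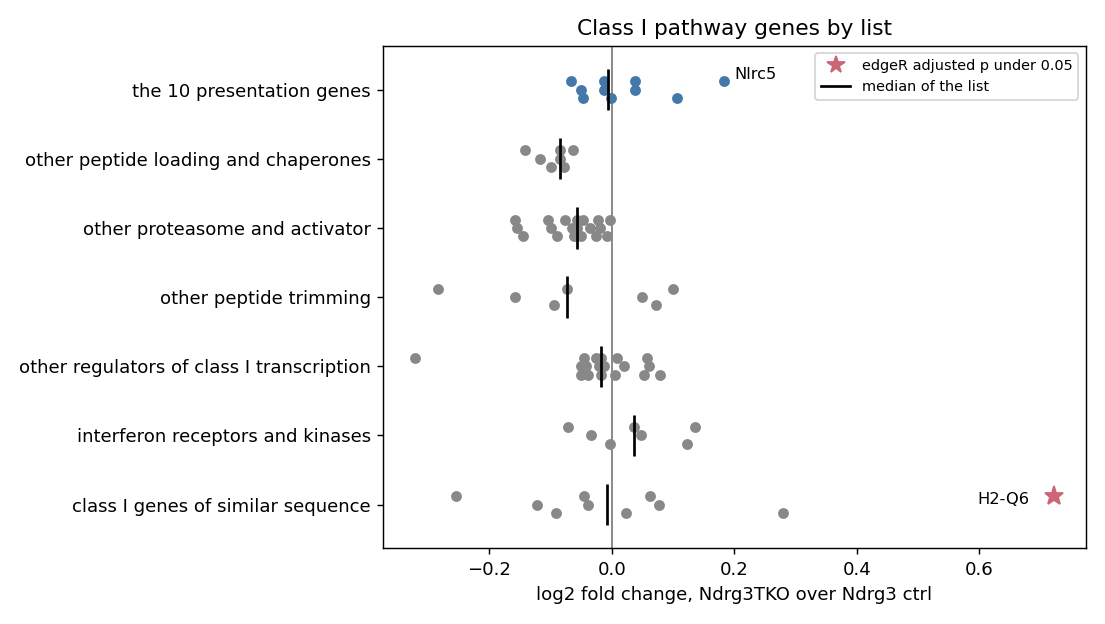
Log2 fold change, Ndrg3TKO over Ndrg3ctrl, of the 10 presentation genes (blue) and of the tested genes of each pathway list (grey), with the median of each list as a black line and a red star for an edgeR adjusted p under 0.05. H2-Q6 is the 1 starred gene, at 0.72, and all points of the loading and proteasome lists lie below 0.

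Other cells could add class I RNA, since most nucleated cells express it. Markers of MHC class II antigen-presenting cells (H2-Aa, H2-Ab1, H2-Eb1, Cd74 and Ciita) summed to 15.8 to 21.7 CPM in Ndrg3ctrl and 13.9 to 16.4 in Ndrg3TKO, and none of the 5 passed the threshold. Myeloid and dendritic markers summed to 17.9 to 24.2 and 19.9 to 23.3 CPM, nearly all from Cst3, and 6 of the 7 stayed under 1 CPM in every library. B cell markers summed to 254 to 310 and 262 to 318 CPM, mostly Ighm, with Ms4a1 at 0 throughout. Thymic epithelial markers summed to 2.03 to 3.12 and 1.47 to 2.76 CPM, erythroid markers to at most 0.232 CPM with 3 of the 5 at 0, double-positive thymocyte markers to 16.8 to 26.2 and 20.9 to 29.0 CPM, and CD4 lineage markers to 1.37 to 3.36 and 1.41 to 2.06 CPM. NK cell markers summed to 41.5 to 52.1 and 36.5 to 56.3 CPM, with 1 of the 3 tested called higher (Klrb1c) and 1 lower (Eomes). Ccr7, S1pr1, Klf2 and Il7r, markers of the mature single-positive stage, in which surface class I is high, summed to 1250 to 1420 CPM in Ndrg3ctrl and 1140 to 1220 in Ndrg3TKO, without overlap. All 4 had a fold change below 1, with log2 fold changes from -0.26 to -0.11, none past the threshold. Of all 14633 tested genes, taken singly, 7493 lay below 1, and 3.59% were lower in Ndrg3TKO without overlap. By flow cytometry the paper found late maturation markers of CD8SP thymocytes unchanged, and surface CD127, the product of Il7r, equivalent. The part of other cells and of stage in the values of the presentation genes was not tested.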

How the data were processed

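RNA from sorted CD8SP TCRb+ MHC-I high thymocytes of 4 Ndrg3ctrl and 4 Ndrg3TKO mice was sequenced. Per the labels and methods, the authors used cutadapt for trimming, STAR for alignment to GRCm38.p4 and featureCounts for counting per gene, within snakePipes, and they deposited raw counts that are not normalized. How strand and multiply mapped reads were handled is not given in the sources used here. Groups and replicate numbers came from the labels. Symbols, positions and exonic lengths came from GENCODE M21, which matched 98.7% of 47937 genes.

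Genes were filtered with filterByExpr, scaled by TMM and tested over all 14633 remaining genes with edgeR 4.0.16 (glmQLFit, robust, and glmQLFTest; R 4.3.3), with Benjamini-Hochberg adjustment and a threshold of 0.05. A normalized count is the raw count over the effective (TMM) library size, put back on the mean total. The standard error was obtained as the size of the log2 fold change over the square root of F, and intervals use 95% of the t distribution with edgeR's degrees of freedom. A limit of 3 counts, which was not part of the filter, lies between 0.0918 and 0.142 CPM. It covers counting error only, as PCR copies could not be told from molecules. Ratios were compared by 2-sided exact permutation. Alternatives were DESeq2 1.42.0, its size factors, no filter, the replicate number, sample number runs or Y-linked RNA as terms, leaving out each library and, for levels per length, the longest protein-coding transcript. The fit was tested on simulated data with known changes. Replicates of a group differed by a chi-square of 9.98 to 35.2 per gene, so none repeats another. Promoters came from RefSeq.

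The members, gene lists and rule were chosen with earlier results of these data known. Named were the 10 members, Ndrg3, pathway genes past the threshold or among the 3 highest per length of a list, and the 5 genes most alike in pattern. Genes outside this rule are said to be chosen later, and members of marker lists are named as such. A few genes that the rule or a marker list covers are not reported here.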

Additional observations from a re-analysis of the deposited data

Results flagged for a closer look

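In 38 groups of 4 libraries (normalized counts of the 10 presentation genes and Ndrg3, the 7 ratios and the total count), 1 library stood apart from the rest of its group by Dixon's test, where chance flags about 1 in 20 groups. This was the H2-D1 normalized count of Ndrg3TKO replicate 2, at 35215, whereas the other 3 Ndrg3TKO libraries lay between 31093 and 31687. The gap was 0.856 of the range of the group. The same library was the highest of its group for 9 of the 10 genes, and Ndrg3ctrl replicate 2, at 37724, was higher still for H2-D1.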

How the results depend on the processing

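The number of presentation genes past the threshold was 0 in edgeR, 1 (Nlrc5) with DESeq2 and 1 (Nlrc5) with the replicate block, and 0 under all other settings. Over 14 alternatives for each of the 10 genes, 126 of 140 log2 fold changes kept their sign, and B2m, Tap1, Psmb9 and Nlrc5 kept it in all. For the other pathway genes, 1 call in edgeR became 2 with DESeq2, 2 with sample number runs as a block, 3 with Y-linked RNA as a covariate, 4 with the replicate block, and 0 to 2 when 1 library was left out. With no filter on low counts the 1 call was H2-Q7 in place of H2-Q6, and with the replicate block H2-Q7 was among the 4. Thop1 was a lower call with Y-linked RNA as a covariate, and Thop1 and Psma6 were with the replicate block (edgeR adjusted p = 0.0236 and 0.0422). Over all genes, 168 calls became 306 with DESeq2, 274 with no filter, 437 with Y-linked RNA as a covariate, 800 with the replicate block, and 90 to 158 when 1 library was left out. The cause was not tested. Same-numbered libraries deviated together with r = 0.171, 0.394, -0.0579 and 0.281, and 6 of 8 libraries correlated best with their own number. As 1 value is under 0.1, the numbers were not taken to pair the mice. With the replicate block Nlrc5 had a log2 fold change of 0.19 and an edgeR adjusted p of 0.0254, within a range of 0.0254 to 0.509 over all alternatives. For the 7 ratios, 60 of 63 values kept their sign, and their adjusted p says nothing about stability, since a single ratio could not pass. With sign flips within replicate numbers the log2 ratio of H2-D1 to B2m was -0.16 (exact p = 0.125, the smallest that 4 pairs allow). The spread between 4 mice limits the intervals more than depth does.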
